A study of Mus musculus with 6 samples.

Results

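The core components of the Hedgehog pathway were examined in astrocytes of the upper and deep cortical layers. The 9 genes were the receptor Ptch1, the binding proteins Boc, Cdon and Hhip, the transducer Smo, the inhibitor Sufu and the transcription factors Gli1, Gli2 and Gli3. Each was taken as the row of the deposited expression table that carries its symbol, which gave 9 of 43383 rows. Astrocytes were sorted by GFP from somatosensory cortex, and the mice were Aldh1l1-eGFP males at 4 weeks of age, in which the Aldh1l1 promoter drives the reporter. Upper-layer astrocytes (ULAs) came from layers II–IV and deep-layer astrocytes (DLAs) from layers V and VI of 3 brains, with 1 library per layer and brain. The samples were dissected without the pial covering, the outermost layer and the white matter below, and they do not hold the whole of the tissue at the border of the upper and deep layers. Both groups carried the same genotype, and the labels name no treatment.

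In Hedgehog signaling, a secreted ligand (Shh, Ihh or Dhh) binds Ptch1, which otherwise keeps Smo inactive, and active Smo at the primary cilium releases the Gli factors from Sufu. Gli2 and Gli3 can be processed into repressors or act as activators, with Gli3 known mainly as a repressor and Gli2 mainly as an activator. Gli1, Ptch1 and Hhip are themselves induced by the pathway, so that their mRNAs are widely used as readouts of it, and Ptch1 and Hhip bind ligand and dampen the response. In the mature forebrain, neurons make Shh and a subset of astrocytes is known to respond to it.

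The promoters of the feedback genes Hhip and Ptch1 are shown because Hhip passed the layer test and Ptch1 did not. The 250 bases before each start site are from RefSeq on GRCm38.p6, written 5′ to 3′ on the minus strand, with each CpG in capitals. Hhip lies at chr8:80058009-80058258 and Ptch1 at chr13:63565736-63565985.
Hhip: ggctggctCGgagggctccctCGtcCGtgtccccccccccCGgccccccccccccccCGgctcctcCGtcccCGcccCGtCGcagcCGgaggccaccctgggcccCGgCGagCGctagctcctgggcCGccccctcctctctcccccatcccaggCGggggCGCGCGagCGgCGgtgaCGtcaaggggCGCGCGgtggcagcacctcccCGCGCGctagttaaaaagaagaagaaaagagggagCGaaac
Ptch1: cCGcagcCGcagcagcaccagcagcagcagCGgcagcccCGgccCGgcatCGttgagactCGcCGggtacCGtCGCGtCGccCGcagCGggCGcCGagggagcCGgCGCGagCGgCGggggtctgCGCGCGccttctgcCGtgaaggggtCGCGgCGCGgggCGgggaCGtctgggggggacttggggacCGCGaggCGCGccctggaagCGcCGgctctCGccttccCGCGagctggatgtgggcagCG
The Hhip stretch held 28 CpGs and was 76.0% G and C, and that of Ptch1 held 41 CpGs at 78.4%. Over 32851 mouse promoters the medians for the same window were 6 CpGs and 52.4%. The Gli consensus GACCACCCA, searched on both strands of the 250 bases before and 50 bases after the start, was in 0.253% of the 32851 promoters. It was in 0 of the 7 members' promoters in the reference table, which were those of Gli2, Gli3, Ptch1, Smo, Hhip, Cdon and Sufu. With 1 mismatch allowed, a search added after the data were seen, it was again in 0 of 7, against 6.74% of all promoters. These letters were thus not in these windows, and the search covered no other part of the loci. At rates this low, 7 promoters are too few for a count of 0 to show a lack of such sites.

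Values are RPKM, reads per kilobase of an mRNA, scaled to the number of mapped reads. The steps of the RPKM values put the depth at 24.4 to 26.7 M reads in ULAs and 19.7 to 29.6 M reads in DLAs. Of the astrocyte markers, 12 of 12 were detected, with summed RPKM of 12204.8 to 13119.9 in ULAs and 11490.9 to 12298.8 in DLAs. Log2 fold changes are ULA minus DLA on the log2(RPKM + 1) scale, with p-values from limma adjusted by the Benjamini-Hochberg method over the 13999 rows whose mean RPKM reached 1. This scale understates the change of genes with low RPKM. Of the 9 members, 8 were tested and Cdon was below the filter.

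Hhip was higher in DLAs than in ULAs, and it was the only member of the 8 tested past an adjusted p of 0.05. Members higher in DLAs thus numbered 1, where 0.914% of all tested rows were called in that direction, and members higher in ULAs numbered 0, where 0.714% were called. Hhip entered the test only through its DLA values, and with no filter on low RPKM its adjusted p was 0.300 and 0 members passed, so the count is a description of this fit and is not read against the background. The RPKM of Gli1 was also higher in DLAs in 3 of 3 brains, but its adjusted p was 0.0659. The median log2 fold change of the 8 tested members was -0.04, beside -0.03 over all tested rows, with 4 members above 0 and 4 below. Because the libraries are bulk samples, more cells that express a gene and more RNA per cell cannot be told apart.

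**Figure D1:**
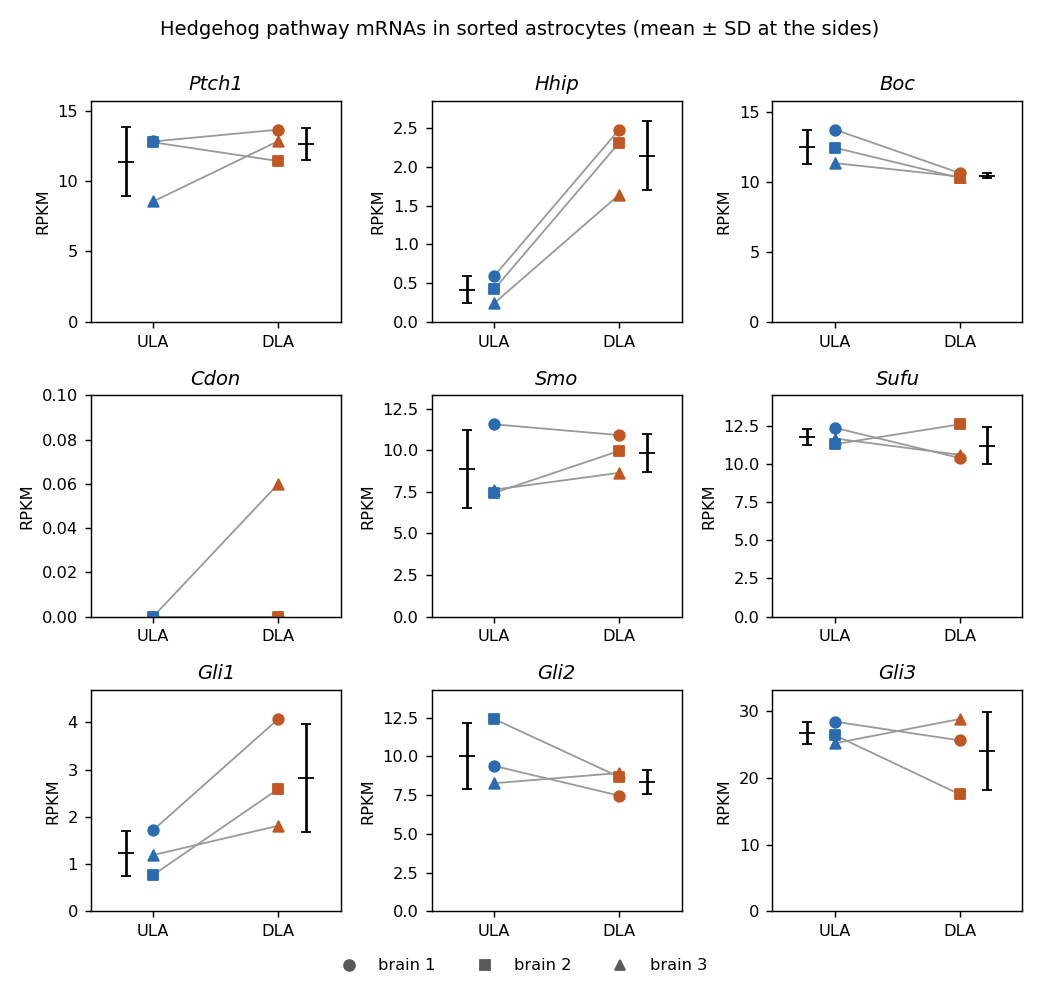
RPKM of the 9 members in ULA and DLA libraries, with 1 point per library, lines joining the layers of 1 brain, and the mean ± SD (n = 3) at the sides except for Cdon, which was listed at 0 in 5 of 6 libraries. For Hhip the ULA libraries sit between 0.24 and 0.59 and the DLA libraries between 1.64 and 2.48, and for Gli1 and Boc the layers also do not overlap.

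The ligand mRNAs were at the edge of detection in the sorted astrocytes. Shh was listed at 0 in 5 of 6 libraries and reached 1 read in the other, Dhh likewise was at 0 in 5 libraries with at most 1 read, and Ihh had at most 5 reads in a library. None of the 3 could therefore be compared between layers at this depth. Among genes that lipidate or release the ligands, Disp1, the transporter for ligand release, was listed at 0 in all 6 libraries, and Disp2 had a mean RPKM of 0.333 ± 0.135 in ULAs and 0.243 ± 0.142 in DLAs. Hhat, the acyltransferase for the ligands, had an RPKM of 0.69, 1.05 and 1.31 in the ULAs and 0.89, 0.69 and 0.45 in the DLAs of brains 1, 2 and 3. Of the secreted Scube proteins, Scube1 was the only gene of the list above the filter, with a mean RPKM of 1.25 ± 0.259 in ULAs and 1.66 ± 0.601 in DLAs and an adjusted p of 0.541. Scube2 had at most 3 reads in a library and Scube3 at most 12.

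Ptch1, the ligand receptor, was well expressed in both layers. Its RPKM was 12.81, 12.75 and 8.55 in the ULAs and 13.65, 11.42 and 12.84 in the DLAs of brains 1, 2 and 3. Only the ULA library of brain 3 stood below 11, and the layers overlapped. The log2 fold change was -0.16 (95% interval -0.48 to 0.16, adjusted p = 0.628). Left without brain 3, the fold change was 0.031. The row of Ptch1 (mm9, chromosome 13, 63612841 to 63666828, minus strand) has 23 exons and 4305 bases of coding length.

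Hhip, a membrane protein that sequesters the ligands, was the member with the clearest layer difference. The gene lies on the minus strand of chromosome 8 from 82489750 to 82581907 (mm9), with 13 exons and an mRNA of 9078 bases. Its RPKM was 0.59, 0.42 and 0.24 in the ULAs and 2.48, 2.31 and 1.64 in the DLAs of brains 1, 2 and 3. Every DLA library was above every ULA library, and the lowest DLA value exceeded the highest ULA value by more than the range within either layer. The deep/upper ratios were 4.20, 5.50 and 6.83, a mean of 5.51 ± 1.32 (SD, n = 3). The values rest on 58 to 131 reads in ULAs and 412 to 598 reads in DLAs. The log2 fold change was -1.15 (SE 0.16, 95% interval -1.50 to -0.79, adjusted p = 0.00736), and with a pseudocount of 0.1 it was -2.16. The mean RPKM of Hhip over the 6 libraries was 1.28, and 4.94% of the tested rows had a lower mean.

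Boc, a co-receptor that presents ligand to Ptch1, had a higher RPKM in the ULAs of 3 of 3 brains but did not pass the test. Its RPKM was 13.73, 12.44 and 11.34 in the ULAs and 10.63, 10.28 and 10.38 in the DLAs of brains 1, 2 and 3. The layers did not overlap, and the ULA/DLA ratio averaged 1.198 ± 0.10 (SD, n = 3). The log2 fold change was 0.24 (95% interval -0.02 to 0.50, adjusted p = 0.349). Boc lies at 44485158 to 44558983 on the minus strand of chromosome 16 (mm9) and has 19 exons. Its relative Cdon, which lies on chromosome 9 from 35259661 to 35315237, was listed at 0 in 5 libraries and at 0.06 in the DLAs of brain 3, from 13 reads. In the 5 libraries at 0, 3 reads would have given 0.0156 to 0.0212 RPKM. Layers thus could not be compared for Cdon, while Boc was above 10 RPKM in 6 of 6 libraries.

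Gas1, the remaining co-receptor, did not pass the test, and its brains differed in direction. Its RPKM was 13.8, 6.94 and 15.17 in the ULAs and 37.4, 6.12 and 38.47 in the DLAs of brains 1, 2 and 3. Brains 1 and 3 were higher in DLAs, whereas brain 2 was low in both layers. The log2 difference was -0.84 with an SE of 0.25 and an adjusted p of 0.141. Gpc5, a glypican of the cell surface, was far above the rest of the list at 897 ± 249 RPKM in ULAs and 814 ± 5.22 in DLAs, with an adjusted p of 0.737. Gpc3, a glypican that competes with Ptch1 for ligand, had at most 13 reads in a library. The endocytic receptor Lrp2 was listed at 0 in all 6 libraries, and Ptchd1, a patched-domain protein, was at 0 in 5 with at most 6 reads in the other.

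Smo, the seven-pass protein that carries the signal across the membrane, had overlapping layers. Its RPKM was 11.56, 7.43 and 7.63 in the ULAs and 10.91, 9.96 and 8.64 in the DLAs of brains 1, 2 and 3. The values of brain 1 were the highest in each layer, and the log2 fold change was -0.15 (95% interval -0.45 to 0.14, adjusted p = 0.599). The gene lies on the plus strand of chromosome 6 from 29685497 to 29711366 (mm9) and has 12 exons. Sufu, which holds Gli proteins in the cytoplasm, was the member with the smallest deviations from its own mean apart from Cdon, with a root mean square of 0.0955 on the log2(RPKM + 1) scale. Its RPKM was 12.36, 11.29 and 11.66 in the ULAs and 10.38, 12.59 and 10.59 in the DLAs. The layers overlapped, with a log2 fold change of 0.07 (95% interval -0.21 to 0.35, adjusted p = 0.819), and of -0.0088 without brain 1. Sufu lies on the plus strand of chromosome 19 from 46471408 to 46561150 and has 12 exons.

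Gli1, the factor that acts only as an activator and is itself a target, had a low and variable level. Its RPKM was 1.72, 0.77 and 1.19 in the ULAs and 4.07, 2.59 and 1.81 in the DLAs of brains 1, 2 and 3. Every DLA library was above every ULA library, but the DLA value of brain 3 was only slightly above the ULA value of brain 1. The deep/upper ratios were 2.37, 3.36 and 1.52, a mean of 2.42 ± 0.922 (SD, n = 3). The values rest on 72 to 154 reads in ULAs and 186 to 396 reads in DLAs. The log2 fold change was -0.76 (SE 0.17, 95% interval -1.15 to -0.37), with an unadjusted p of 0.00142 and an adjusted p of 0.0659 in limma. Without brain 3 the fold change was -0.96 and the adjusted p was 0.0014, and in the other 9 alternatives that tested Gli1 the gene did not pass. The fit without brain 3 leaves out the brain with the smallest deep/upper ratio. Over all rows it called 431 higher in ULAs and 695 higher in DLAs, against 100 and 128 with all brains. Gli1 lies on chromosome 10 from 126766938 to 126778635 on the minus strand (mm9), with 13 exons. Its exons share 62 bases, 1.69% of its mRNA, with Arhgap9 on the opposite strand, and the library kit does not keep strand. The mean RPKM of the Arhgap9 row was 0.08 in ULAs and 0.237 in DLAs.

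Gli2 and Gli3 did not pass the test, and their layers overlapped. The RPKM of Gli2 was 9.39, 12.42 and 8.27 in the ULAs and 7.47, 8.68 and 8.93 in the DLAs of brains 1, 2 and 3. The ULAs of brain 2 stood highest, 2 of 3 brains were higher in ULAs, and the log2 fold change was 0.22 (95% interval -0.09 to 0.53, adjusted p = 0.460). Gli3 had the highest level of the 9 members, with an RPKM of 28.46, 26.43 and 25.21 in the ULAs and 25.64, 17.54 and 28.86 in the DLAs. The DLAs of brain 2, the library with the fewest reads, gave the lowest value. Its log2 fold change was 0.17 (95% interval -0.14 to 0.49, adjusted p = 0.581), and -0.021 without brain 2. Gli2 lies on the minus strand of chromosome 1 from 120730638 to 120950196 and has 14 exons, and Gli3 lies on the plus strand of chromosome 13 from 15555556 to 15821858 and has 15 exons (mm9).

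**Figure D2:**
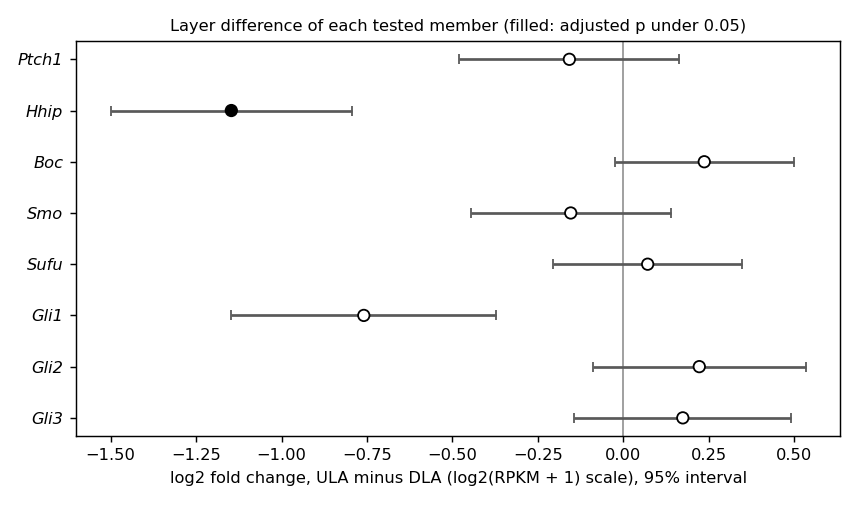
Log2 fold change (ULA minus DLA, log2(RPKM + 1) scale, x axis) of the 8 tested members with 95% intervals from limma over 3 brains, filled where the adjusted p was under 0.05. The intervals of Hhip (-1.50 to -0.79) and Gli1 (-1.15 to -0.37) lie below 0, with only Hhip filled, and the other 6 intervals include 0.

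The repressor-prone Gli3 made up most of the Gli mRNA in both layers. Of the summed RPKM of the 3 factors, Gli3 accounted for 70.4% ± 3.26 (SD, n = 3) in ULAs and 67.6% ± 6.12 in DLAs, and Gli2 for 26.3% ± 4.36 and 24.3% ± 5.23. Gli1 accounted for 4.35%, 1.94% and 3.43% in the ULAs of brains 1, 2 and 3, and for 10.9%, 8.99% and 4.57% in the DLAs. The Gli1 share was higher in DLAs in 3 of 3 brains, with the smallest gap in brain 3. The summed level was 38.0 ± 2.84 RPKM in ULAs and 35.2 ± 5.66 RPKM in DLAs. These shares are of mRNA per length and give no measure of the protein forms.

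**Figure D3:**
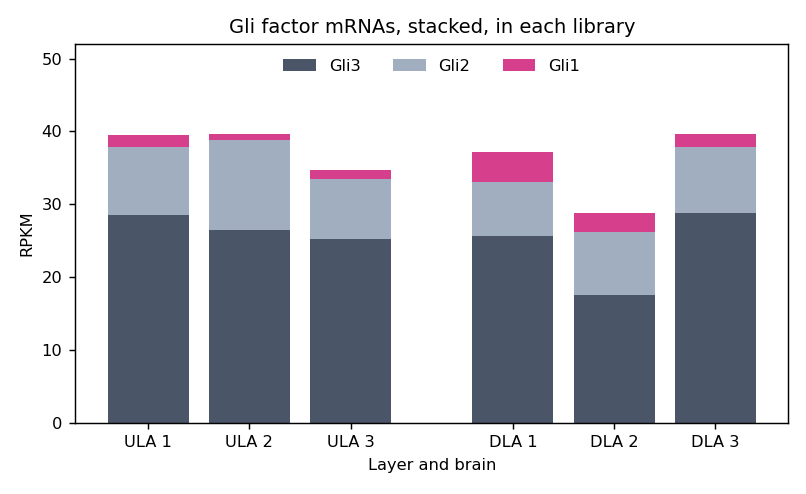
Stacked RPKM of Gli3, Gli2 and Gli1 (y axis) in each of the 6 libraries, by layer and brain (x axis). Gli3 is the lowest and tallest segment in every bar, and the Gli1 segment is 1.94% to 4.35% of the bar in ULAs and 4.57% to 10.9% in DLAs.

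Ordered by mean RPKM over the 6 libraries, the members were Gli3 (25.4), Ptch1 (12.003), Sufu (11.5), Boc (11.5), Smo (9.36), Gli2 (9.19), Gli1 (2.03), Hhip (1.28) and Cdon (0.01). Gli3 exceeded Ptch1 in 6 of 6 libraries and their ranges did not overlap, and the same held for Gli2 over Gli1 and for Hhip over Cdon. Gli1 exceeded Hhip in 6 of 6 libraries with overlapping ranges. The ranges of Ptch1, Sufu, Boc, Smo and Gli2 overlapped between neighbors in this order. Of the 8 tested members, 2 (Gli1 and Hhip) had layers that did not overlap with DLAs higher, where 9.27% of all tested rows did. Hhip was among the tested members only through its DLA values, so this count is not read against the background. In the other direction 1 member (Boc) had layers that did not overlap, where 6.59% of rows did. Whether the layer differences of Hhip, Gli1 and Ptch1 differ from each other was not tested.

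RNA of other cell types in the sorted samples was measured beside these results. Of 9 oligodendrocyte markers, none was at 0 in all libraries and 8 were tested, of which 6 were higher in DLAs, with a median log2 fold change of -1.19. Their summed RPKM was 87.07 to 178.96 in ULAs and 177.59 to 280.56 in DLAs. Within the list, Mbp, a myelin protein gene, did not overlap between layers, with an RPKM of 10.5 to 15.87 in ULAs and 35.24 to 37.97 in DLAs. The 6 markers of oligodendrocyte precursors summed to 85.37 to 96.82 RPKM in ULAs and 97.11 to 133.94 RPKM in DLAs. None was at 0 in all libraries, and 0 of 2 tested passed the threshold. Most of this sum was Olig1, with a mean of 84.6 RPKM in ULAs and 108.9 in DLAs. Sox10 (at most 0.68 RPKM) was higher in DLAs and Cspg4 (at most 0.92) higher in ULAs in 3 of 3 brains. Pdgfra and Gpr17 reached at most 0.07 and 0.03 RPKM. The 7 meningeal fibroblast markers summed to 3.07 to 4.11 RPKM in ULAs and 4.95 to 6.27 RPKM in DLAs, with Col3a1 and Slc6a13 at 0 and 0 of 1 tested past the threshold. The part of oligodendrocyte, precursor and fibroblast RNA in the Hhip and Gli1 results was not tested. The 10 neuron markers summed to 7.29 to 7.68 RPKM in ULAs and 5.27 to 7.9 RPKM in DLAs, the 7 microglia markers to 13.56 to 14.69 and 8.95 to 12.04, and the 8 endothelial and mural markers to 15.57 to 22.32 and 11.96 to 19.58. None of the markers of these 3 lists was at 0 in all libraries. Of the tested ones, 0 of 1 neuron and 0 of 1 microglia markers passed. Of the endothelial and mural markers 1 of 2 passed, the pericyte gene Rgs5. It was higher in ULAs (mean RPKM of 2.25 ± 0.395 against 0.897 ± 0.133, adjusted p = 0.0455). Its DLA mean was below 1, so Rgs5 reached the filter only through its ULA values. Markers of upper-layer neurons summed to 139.36 to 160.34 RPKM in ULAs and 108.41 to 182.37 RPKM in DLAs, and those of deep-layer neurons to 27.91 to 33.39 and 23.43 to 36.53, with Bcl11b at 0 in all libraries.

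**Figure D4:**
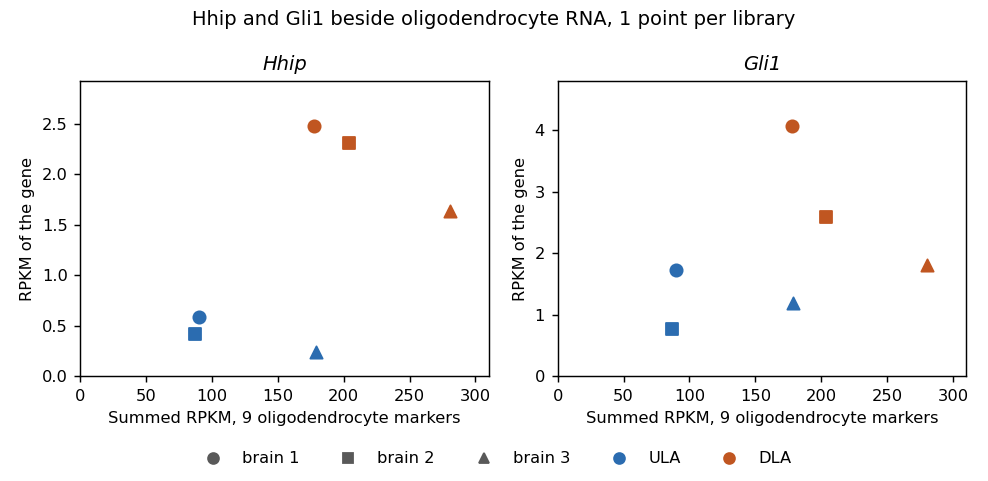
RPKM of Hhip (left) and Gli1 (right) on the y axis against the summed RPKM of 9 oligodendrocyte markers on the x axis, with 1 point per library, colors for layers and symbols for brains. The marker sum runs from 87.07 to 178.96 in ULAs and from 177.59 to 280.56 in DLAs, and the DLA points lie above the ULA points for each gene.

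The rest of the pathway showed few layer differences. Of 83 other genes of the pathway, its cilium and its targets, 58 were tested, of which 1 was higher in ULAs and 2 were higher in DLAs, beside 1.63% of all tested rows called in either direction. The median log2 fold change of the 58 was 0.06, with 36 above 0 and 22 below. The 3 genes that passed were Ccnd1, Nkx2-2 and Gnas, and each had the same direction in 3 of 3 brains, where 15.2% of all tested rows were higher in ULAs and 23.2% higher in DLAs in every brain.

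Among 17 other target genes, 7 were tested. Ccnd1, the D-type cyclin of G1 progression, was higher in ULAs, with an RPKM of 6.57, 5.68 and 5.15 in the ULAs and 4.18, 3.05 and 2.99 in the DLAs of brains 1, 2 and 3. The log2 difference was 0.63 with an SE of 0.13, just past the threshold at an adjusted p of 0.0484. The call was lost with no brain term (adjusted p = 0.237), with no filter (0.367), quantile normalization (0.0526), the length correction (0.0805) or no trend (0.0541), and without brain 1 (0.148) or brain 2 (0.0956). Rgs5, the pericyte marker, was also higher in ULAs, whereas Pdgfrb, the other tested gene of its list, did not pass (adjusted p = 0.790). Below the filter, Acta2 was higher in ULAs and Vtn in DLAs in 3 of 3 brains. The part of RNA of such cells in the Ccnd1 result was not tested. Nkx2-2, a homeodomain factor of the ventral neural tube that is also made by the oligodendrocyte lineage, was higher in DLAs. Its RPKM was 2.4, 2.19 and 2.4 in the ULAs and 4.85, 6.04 and 4.7 in the DLAs. This gave a log2 difference of -0.89 with an SE of 0.15 and an adjusted p of 0.0153. The layers did not overlap for either gene. With no filter the adjusted p of Nkx2-2 was 0.339. The oligodendrocyte sum given above was also higher in DLAs in each brain. The precursor sum was higher in DLAs in brains 1 and 2 but nearly equal in brain 3 (96.82 and 97.11 RPKM). Of the precursor markers, Olig2 was at 5.18, 4.91 and 5.33 RPKM in the ULAs and 19.06, 5.86 and 9.06 RPKM in the DLAs (adjusted p = 0.106). Cspg4 of the same list was higher in ULAs in 3 of 3 brains, at 0.92 RPKM or less. The part of RNA of these cells in the Nkx2-2 result was not tested. The targets with the highest levels were the potassium channel gene Kcnj10 (28.6 ± 3.09 RPKM in ULAs and 31.6 ± 0.775 in DLAs), the Wnt antagonist Sfrp1 (14.0 ± 6.43 and 13.8 ± 7.92) and Ccnd2 (13.6 ± 2.11 and 10.9 ± 0.750), with adjusted p-values of 0.535, 0.741 and 0.328.

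Among 27 signal transducers and regulators of Gli proteins, 25 were tested and Gnas alone passed. Gnas encodes the stimulatory G protein subunit that raises cAMP, a brake on the pathway through protein kinase A. Its RPKM was 29.79, 13.38 and 34.13 in the ULAs and 45.9, 22.12 and 48.93 in the DLAs of brains 1, 2 and 3, so that brain 2 was low in both layers and the layers overlapped. Within each brain the DLAs were higher, and the log2 difference (ULA minus DLA) was -0.60 with an SE of 0.10 and an adjusted p of 0.0198. This p was 0.607 without the brain in the model, 0.301 with no filter, 0.0645 with no trend and 0.104 without brain 1. The list had a median log2 fold change of 0.08, with 18 genes above 0 and 7 below. Its highest levels were those of Prkar1a, a regulatory subunit of protein kinase A (93.3 ± 4.09 and 96.3 ± 1.51 RPKM in ULAs and DLAs), Fkbp8 (74.4 ± 1.88 and 87.9 ± 9.95) and the Gli-degrading adaptor Spop (63.0 ± 6.89 and 59.2 ± 6.70), with adjusted p-values of 0.853, 0.301 and 0.699.

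Of 25 genes of the primary cilium, the organelle in which Smo and the Gli factors meet, 23 were tested and 0 passed in limma, with a median log2 fold change of 0.02. The highest levels were those of the intraflagellar transport genes Ift27 (74.7 ± 11.7 RPKM in ULAs and 91.5 ± 4.30 in DLAs), Ift20 (40.5 ± 5.67 and 51.2 ± 8.80) and Ift57 (27.5 ± 3.00 and 31.8 ± 3.96). Each of the 3 was higher in DLAs in 3 of 3 brains, with adjusted p-values of 0.211, 0.241 and 0.355.

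**Figure D5:**
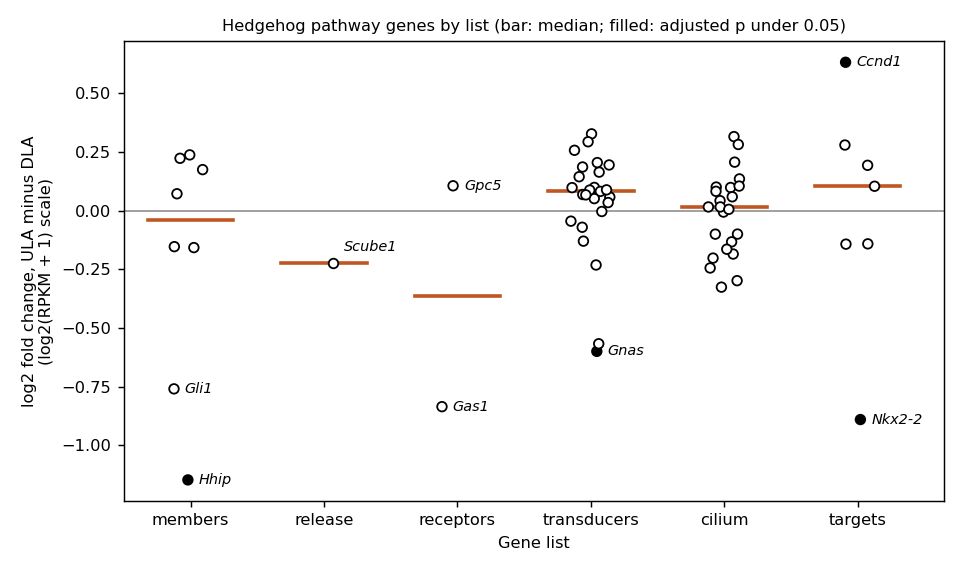
Log2 fold change (ULA minus DLA, log2(RPKM + 1) scale, y axis) of each tested gene in the 9-member set and 5 further lists (x axis), with the median as a bar and genes with an adjusted p under 0.05 filled. The filled points are Hhip (-1.15), Nkx2-2 (-0.89), Gnas (-0.60) and Ccnd1 (0.63), and the medians of the transducer and cilium lists are 0.08 and 0.02.

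The rows whose pattern over the 6 libraries lay nearest to the feedback targets were found among 7915 rows with a mean RPKM from 5 upwards and a RefSeq accession. The measure was the root mean square difference of log2(RPKM + 1) values after each row's mean was subtracted. The nearest rows to Gli1 were Gadd45g (0.127), Rasl11b (0.178) and Pipox (0.215), while Gli1's own deviations had a root mean square of 0.487. The nearest rows to Hhip were Gfap (0.168), Snord19 (0.175) and Pipox (0.184), against 0.596 for Hhip itself. Pipox, the gene for pipecolic acid oxidase, was thus among the 3 nearest for both genes. The nearest rows to Ptch1 were Itga6 (0.062), 0610007P08Rik (0.0632) and Mtrf1l (0.0676), against 0.205 for Ptch1. Gfap, the astrocyte intermediate filament gene, had a mean RPKM of 11.7 in ULAs and 23.5 in DLAs, and Gadd45g had 19.6 and 36.3. The pseudocount of 1 compresses the changes of Hhip and Gli1 more than those of the candidate rows. With a pseudocount of 0.1, the log2 fold change moved from -1.15 to -2.16 for Hhip and from -0.76 to -1.13 for Gli1. The nearest rows thus hold for the log2(RPKM + 1) scale, and nearness on other scales was not tested.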

How the data were processed

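RNA of ULAs and DLAs from 3 brains was converted to cDNA (SMART-Seq v4), tagged (Nextera XT) and read as 36-base single ends. RPKM values and mRNA lengths were deposited by the authors. The submitters' processing notes name the mm9 build, bcl2fastq 1.8.4 and CASAVA 1.8.2. The aligner and counting program are not given in the sources used here. RPKM values were truncated to 2 decimals, and depth was read from their steps in rows of up to 500 bases, for precision only.

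Rows whose mean RPKM reached 1 were tested with limma 3.58.1 in R 4.3.3 (trend, brain and layer as terms, 2-sided). Intervals are at 95%. A permutation test of 3 pairs cannot give a p under 0.25. The replicate number was taken as the brain: the values of 68 of 68 genes that the study lists by brain were identical, and same-numbered libraries deviated together (r across genes of 0.42, 0.33 and 0.34). P-values rest on how the layer difference varied between these 3 brains. Limma draws the variance of each row towards that of rows of similar level. The fit was tested on simulated data.

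The members and gene lists were chosen with earlier results of these data known. Named genes were the members, all ligand, release and receptor genes, of the other lists those that passed and the 3 with the highest mean RPKM, and the 3 rows nearest in pattern to Gli1, Ptch1 and Hhip, except that 1 gene is not reported here. Genes of the marker lists were named as examples, outside this rule. Tables used Python 3.11.15, pandas 2.3.3, numpy 2.4.6 and matplotlib 3.10.9. Alternatives changed the brain term (none), the pseudocount (0.1), the low-value filter (none, or a mean RPKM from 5), the scaling (by medians, quantiles or mRNA length), the trend (none) and the brains (each left out).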

Additional observations from a re-analysis of the deposited data

How the results depend on the processing

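Hhip was higher in DLAs in all 10 alternatives that tested it and passed in 9 of them, with log2 fold changes of -2.16 to -1.11 and adjusted p-values of 0.000233 to 0.300. It failed with no filter and was not tested at a mean RPKM of at least 5. Fits with 1 brain left out rest on 2 brains, so their p-values lean mostly on the variance that limma takes from all rows. The adjusted p of Gli1 ranged from 0.0014 to 0.424 over 10 alternatives, with a pass only without brain 3. With 1 brain left out, log2 fold changes ranged from -0.0088 (without brain 1) to 0.18 for Sufu, from -0.021 (without brain 2) to 0.36 for Gli3 and from -0.31 to 0.031 (without brain 3) for Ptch1, so that these 3 turned direction.

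The number of members higher in DLAs, 1 in the report, was 0 with no filter and 0 at a mean RPKM of at least 5, and ranged from 1 to 2 with 1 brain left out (2, with Gli1, without brain 3). Of the other pathway genes, 1 was higher in ULAs (Ccnd1), which became 0 without the replicate block, with no filter, at a mean RPKM of at least 5, with quantile normalization, with the length correction and with no trend, and 0 to 1 with 1 brain left out. The 2 genes higher in DLAs became 1 without the replicate block, 0 with no filter, 1 at a mean RPKM of at least 5, 1 with no trend, and 1 to 5 with 1 brain left out.

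Over all rows, 100 were higher in ULAs and 128 in DLAs. These numbers were 23 and 18 without the block, 65 and 79 with no trend, 69 and 85 with the length correction, 138 and 103 with quantile normalization, and 431 and 695 without brain 3. With no filter, limma called 0 and 0 of 27963 rows, against 1124 and 1675 at an unadjusted p under 0.05. The causes were not tested. The brain pairs the samples, so the block stays in the fit, and without it Hhip passed at 0.0453. In ULAs, Gli1 rests on 72 to 154 reads and Hhip on 58 to 131, and what these low numbers add to the spread was not tested. Cdon and the ligands had too few reads for a comparison.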
